A study of Mus musculus with 22 samples.

Results

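The genes described here are the 10 that encode the core and the close relatives of the transcription factor AP-1: Fos, Fosb, Fosl1 and Fosl2 of the FOS family, Jun, Junb and Jund of the JUN family, and Atf3, Maff and Batf. They were taken by gene symbol, 10 lines of a table that holds 54514 genes and other entries after lines with a shared symbol were summed, and each has 1 line. The 22 RNA-seq libraries come from mpkCCD cells, an immortalised mouse line of the kidney's cortical collecting duct, grown on permeable supports and then kept in a medium free of serum and growth factors that contained dexamethasone. WT cells received no dDAVP (called vehicle here, 3 libraries) or dDAVP (3 libraries), the synthetic vasopressin analogue that acts on the V2 receptor. The GFP reporter lines C1, C11, C43 and C50 were all treated with dDAVP, and each was split into GFP-negative and GFP-positive cells, with 2 libraries for either fraction, so that no reporter library without dDAVP was analysed here. Each reporter line is 1 clone, and the promoter that drives GFP and the way the fractions were separated are not given in the sources used here; the labels do not tie the doses and durations they list to single libraries. Nothing says that the libraries of a group came from separate cultures, so the p-values measure the spread between these libraries, which may be technical.

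AP-1 is a dimer of basic leucine zipper (bZIP) proteins, either a JUN protein with a FOS or ATF partner or a pair of JUN proteins, that binds the TPA response element or the related cAMP response element (CRE). Many of its genes are immediate early genes, induced within minutes by growth factors, stress or cell handling through MAP kinases, serum response factor and the cAMP-responsive factor CREB, and their mRNAs and proteins are short-lived. In the collecting duct, vasopressin raises cAMP through the V2 receptor, and transcription of the water channel gene Aqp2 follows, with both CRE and AP-1 sites known in its promoter.

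The promoter windows of 5 members are shown because dDAVP signals through cAMP: the 4 genes whose level changed with dDAVP and Maff, the member with a complete CRE. They are RefSeq windows (GRCm38.p6) of 250 bases before and 50 bases from the start site on, written 5′ to 3′ on the gene's strand. Capitals mark a CRE (TGACGTCA) or a CRE core (TGACG, or CGTCA where it lies on the other strand).
Fos, chr12:85473640-85473939, plus strand: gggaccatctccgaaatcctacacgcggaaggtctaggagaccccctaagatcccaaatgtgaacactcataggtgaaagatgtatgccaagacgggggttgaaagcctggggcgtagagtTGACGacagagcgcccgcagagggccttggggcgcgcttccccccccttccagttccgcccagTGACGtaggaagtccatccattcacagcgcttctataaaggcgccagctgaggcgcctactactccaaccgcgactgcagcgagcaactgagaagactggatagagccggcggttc
Fosb, chr7:19309996-19310295, minus strand: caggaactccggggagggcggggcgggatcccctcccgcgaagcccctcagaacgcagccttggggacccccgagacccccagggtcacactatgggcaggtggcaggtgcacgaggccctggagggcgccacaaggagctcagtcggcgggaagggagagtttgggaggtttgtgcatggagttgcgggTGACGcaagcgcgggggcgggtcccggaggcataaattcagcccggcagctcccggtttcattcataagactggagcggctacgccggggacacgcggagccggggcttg
Jun, chr4:95052173-95052472, minus strand: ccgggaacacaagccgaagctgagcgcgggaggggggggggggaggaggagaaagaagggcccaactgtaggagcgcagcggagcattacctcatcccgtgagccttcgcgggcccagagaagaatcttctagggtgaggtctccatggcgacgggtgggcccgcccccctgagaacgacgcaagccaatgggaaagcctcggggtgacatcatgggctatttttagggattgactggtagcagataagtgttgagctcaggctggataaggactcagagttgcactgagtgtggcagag
Atf3, chr1:191183284-191183583, minus strand: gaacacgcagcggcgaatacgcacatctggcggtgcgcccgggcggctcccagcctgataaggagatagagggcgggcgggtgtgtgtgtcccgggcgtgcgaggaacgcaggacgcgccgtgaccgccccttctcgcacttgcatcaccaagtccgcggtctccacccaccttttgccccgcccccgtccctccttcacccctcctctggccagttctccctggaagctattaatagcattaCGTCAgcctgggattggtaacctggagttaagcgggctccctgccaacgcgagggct
Maff, chr15:79347270-79347569, plus strand: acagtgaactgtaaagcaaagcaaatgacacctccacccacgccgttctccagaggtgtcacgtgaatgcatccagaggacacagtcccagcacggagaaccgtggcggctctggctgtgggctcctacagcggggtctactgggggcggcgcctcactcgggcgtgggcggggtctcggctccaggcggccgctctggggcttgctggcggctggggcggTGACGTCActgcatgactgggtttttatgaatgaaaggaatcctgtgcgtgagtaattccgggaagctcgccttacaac
Windows were found for 9 of the 10 members (11 windows, 3 of them for Maff). Both strands were searched. A CRE core was present in 7 of the members' 11 windows, against 20.8% of the 32851 promoter windows of the table, and these belong to 6 of the 9 members. In Fos it lay at -129 to -125 and at -66 to -62 from the start site, in Fosb at -60 to -56, in Junb at -106 to -102, in Batf at -98 to -94, in Atf3 on the other strand at -7 to -3, and in a further Maff window on the other strand at -122 to -118. The complete CRE, which contains the core, was present in Maff alone among the members, at -29 to -22, and in 1.79% of all windows. The windows of Jun, Jund and Fosl2 had no match to either; that of Jund (chr8:70697489-70697788) lies upstream of the gene's GENCODE start at 70698949. The TPA response element (TGAGTCA; 5.2% of all windows) and the CArG box, which serum response factor binds (1.63%), had no match in any member's window. These are matches of letters, and no binding was measured. Sites more than 250 bases before a start site lay outside the search, so the absence of a match holds for these windows alone. The Atf3 window lies inside the span that GENCODE gives the gene (chr1:191170296-191218039), at a start site downstream of its outermost one. The Maff window shown and the Fosl2 window also lie inside their genes, whose GENCODE starts are 79346621 and 32135801. The Maff window at that outermost start (chr15:79346371-79346670) had neither a CRE nor a core.

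The members fell into an abundant and a scarce set. All values are the authors' TPM (transcript abundance scaled by length and to a fixed total per library), which allows levels to be compared between genes but keeps no sequencing depth. Over the 22 libraries Fos lay at 1515 to 4257 TPM, with a median rank of 25 among all entries of a library, and Junb at 1939 to 3594 TPM with a median rank of 23. Jun lay at 941 to 3526 TPM, Atf3 at 671 to 1888 TPM and Jund at 422 to 1015 TPM. The scarce set was Fosl1 at 42.2 to 239 TPM, Fosb at 28.7 to 72.4 TPM, Maff at 25.1 to 74.3 TPM and Fosl2 at 10.2 to 22.7 TPM. Batf, whose product dimerises with JUN proteins mainly in lymphocytes, was listed at 0 in 11 libraries and never exceeded 1.26 TPM; it did not reach the mean of 1 TPM needed for a test, so that 9 members were tested. Together the 10 genes made up 0.659% to 1.36% of all TPM in a library. Fos supplied 85.3% to 97.5% of the FOS-family TPM, while Junb and Jun shared most of the JUN-family TPM.

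**Figure D1:**
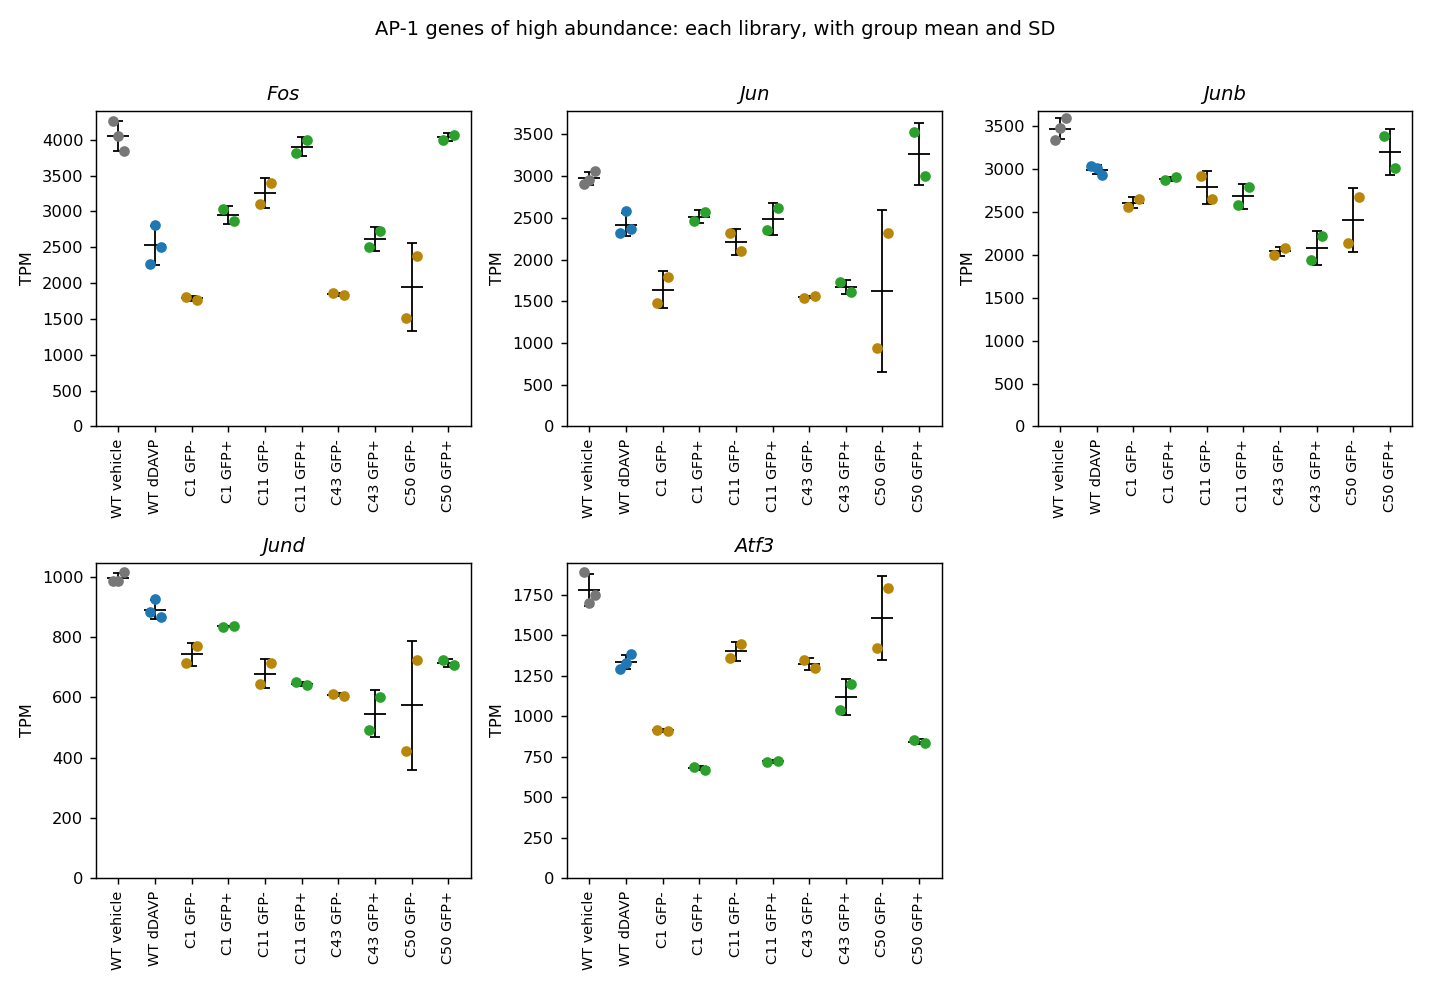
TPM (vertical axes, from 0) of the 5 abundant members in each library of the 10 groups (points), with the group mean (horizontal line) and SD (bars). WT vehicle is grey, WT dDAVP blue, GFP-negative fractions ochre and GFP-positive fractions green; Fos lies at 3838 to 4257 TPM with vehicle and 2267 to 2815 TPM with dDAVP, and the GFP-negative fraction of C50 has the widest spread for Jun.

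The libraries express collecting duct principal cell genes: 9 of 11 fixed markers averaged at least 1 TPM, while Elf5 averaged under 0.1 TPM and Scnn1b under 1 TPM. None of 6 intercalated cell, 3 thick ascending limb and distal tubule, 4 fibroblast or 3 endothelial markers averaged 1 TPM, and the summed level per library was at most 1.12, 1.27, 0.9 and 1.29 TPM. Of 4 leukocyte markers, Cd68 alone did (sum 3.2 to 12.95 TPM, with Lyz2 and Adgre1 under 0.1 TPM), and of 5 proximal tubule markers Lrp2 alone did. The summed proximal tubule markers lay at 10.3 to 15.9 TPM with vehicle and 5.17 to 8.58 TPM with dDAVP in WT cells, and at 0.94 to 13.2 TPM in the GFP-negative and 3.92 to 16.2 TPM in the GFP-positive libraries. Lrp2 had a log2 change of -0.78 with dDAVP (limma adjusted p 0.0603) and of 0.56 between the GFP fractions (adjusted p 0.00525), while Slc34a1, Cubn, Slc5a2 and Slc22a6 were at or under 0.69 TPM in every library. Aqp2 lay at 64.1 to 74.9 TPM with vehicle and at 2759 to 3025 TPM with dDAVP in WT cells, and GFP at 5.31 to 17.6 TPM in the GFP-negative and 1065 to 1567 TPM in the GFP-positive libraries, which matches the labels. GFP-negative replicate 1 of C50 stands apart: ribosomal-protein transcripts made up 8.32% of its TPM against 3.85% to 6.12% in the other 21 libraries. Main changes without it are given where it bears on them. Entries above 0 TPM ran from 17177 to 31292 per library and differed within groups, as between 30855 and 19002 in the GFP-negative replicates of C43. Because these are bulk libraries, fewer cells that express a gene and less RNA per cell cannot be told apart.

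The first comparison asks which members change when WT cells receive dDAVP. Of the 9 tested members 4 fell and 0 rose: Fosb to 0.55 times its mean TPM with vehicle, Fos to 0.62, Atf3 to 0.75 and Jun to 0.81 times. Among all genes and other entries, 8.88% of the 13494 tested entries were called (2.37% higher and 6.51% lower). Tests were made with limma on log2(TPM + 1), two-sided, and called at a Benjamini-Hochberg adjusted p under 0.05 over all tested entries. In 7 members (Fos, Fosb, Jun, Junb, Jund, Atf3 and Maff) all 3 dDAVP libraries lay below all 3 vehicle libraries, an order that 28.7% of the tested entries also had. The median log2 change was -0.22 over the 9 members and -0.16 over all tested entries. Of all calls 26.71% were higher, against 63.75% after median-ratio scaling, which sets the median change of all entries near 0, and 54.07% after quantile normalization.

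Fos, the founding partner of JUN in AP-1 and the textbook immediate early gene, was at 4257, 4052 and 3838 TPM with vehicle. With dDAVP it was at 2267, 2815 and 2500 TPM. The groups did not overlap, and the log2 change was -0.68 ± 0.09 (SE; limma adjusted p 0.00722). Fosb, a close relative induced by the same stimuli, was at 72.4, 55.4 and 62.0 TPM with vehicle and at 32.8, 38.8 and 33.7 TPM with dDAVP. Its log2 change was -0.83 ± 0.12 (SE; limma adjusted p 0.00991), and WT cells with dDAVP had the lowest mean Fosb of the 10 groups.

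Atf3 encodes a stress-induced bZIP protein that represses transcription as a homodimer and also pairs with JUN. It was at 1888, 1698 and 1748 TPM with vehicle and at 1295, 1328 and 1382 TPM with dDAVP, with no overlap. The log2 change was -0.41 ± 0.07 (SE; limma adjusted p 0.0134). Jun, the DNA-binding partner common to most AP-1 dimers, was at 2911, 2953 and 3056 TPM with vehicle and at 2316, 2576 and 2365 TPM with dDAVP, a log2 change of -0.30 ± 0.06 (SE; limma adjusted p 0.0345). With replicate number as a block, Fos, Fosb, Atf3 and Jun all lost their calls (limma adjusted p 0.0672, 0.0819, 0.122 and 0.176). Entries called in the whole table went from 1198 to 122 in that fit. The fall of Fos and Fosb kept its call after median-ratio scaling (Fos -0.51, adjusted p 0.0185, and Fosb -0.66, adjusted p 0.00961). Those of Atf3 (-0.24, adjusted p 0.111) and Jun (-0.13, adjusted p 0.385) did not, though both kept theirs after quantile normalization (-0.50, adjusted p 0.0167, and -0.39, adjusted p 0.00843), and single libraries also decided them: Atf3 lost its call without vehicle replicate 3 or dDAVP replicate 1 or 3, and Jun without any of these or vehicle replicate 1 or 2, at adjusted p of 0.0531 to 0.146.

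The other 5 tested members did not pass. Junb, which encodes a JUN protein that often opposes Jun in growth control, was at 3345, 3477 and 3594 TPM with vehicle and at 3035, 3011 and 2931 TPM with dDAVP (log2 change -0.21, limma adjusted p 0.0597), and it was called lower after quantile normalization (-0.39, adjusted p 0.0107). Jund, the JUN protein found in resting cells, was at 986 to 1015 TPM with vehicle and 866 to 925 TPM with dDAVP (log2 change -0.16, limma adjusted p 0.114), with a change of 0.01 after median-ratio scaling and a call after quantile normalization (-0.32, adjusted p 0.0449). Maff encodes a small MAF protein, which lacks an activation domain and pairs with other bZIP proteins; it was at 54.4 to 57.9 TPM and then 44.4 to 52.9 TPM (log2 change -0.22, limma adjusted p 0.142). Fosl1 and Fosl2, the FOS relatives that lack the strong activation domain of Fos, overlapped between the groups, with log2 changes of -0.10 and 0.14 (limma adjusted p 0.51 and 0.662); that of Fosl1 was 0.07 after median-ratio scaling. As a share of the FOS-family TPM, Fos was at 96.4% ± 0.384 with vehicle and 95.4% ± 0.157 with dDAVP, and Fosl1 at 1.83% ± 0.258 and 2.70% ± 0.213 (SD, n = 3 each); the shares were not tested.

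**Figure D2:**
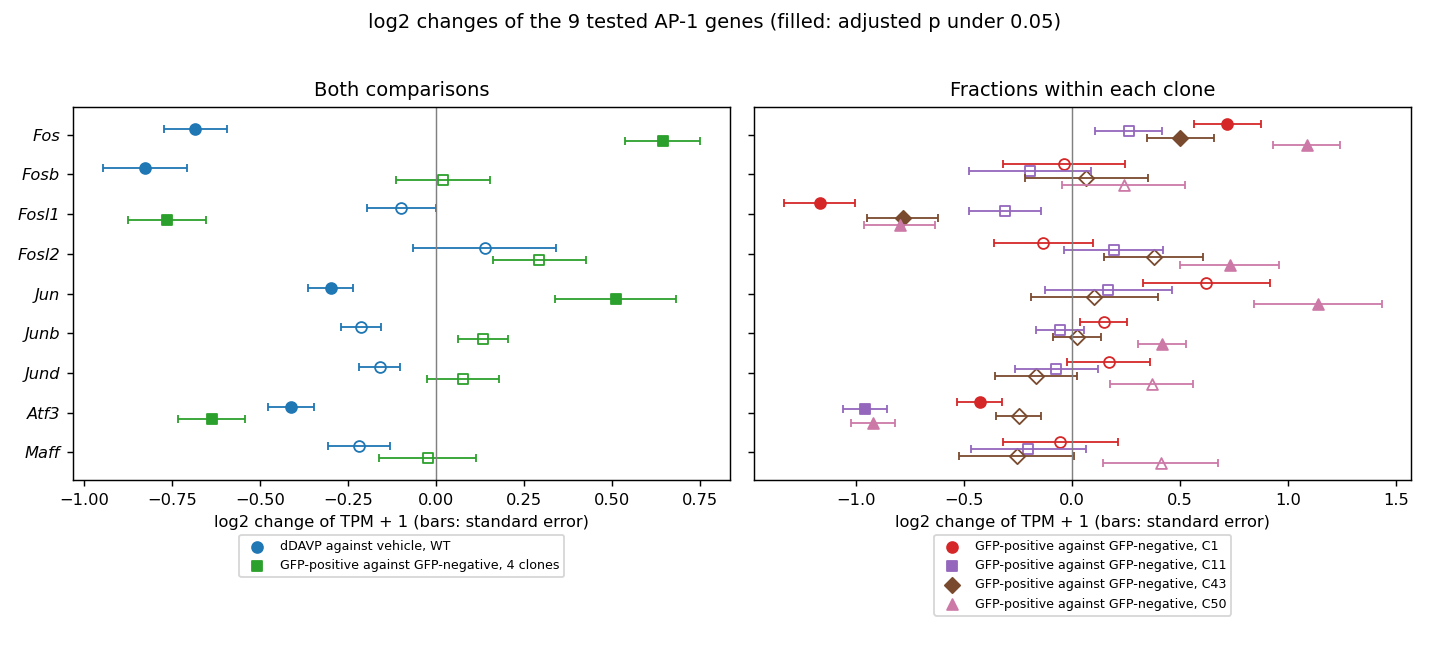
log2 change of TPM + 1 (horizontal axes) of the 9 tested members, with standard errors as bars; filled symbols have an adjusted p under 0.05. The left panel sets dDAVP against vehicle in WT cells (circles) beside GFP-positive against GFP-negative over the 4 clones (squares), and Fos lies at -0.68 in the former and 0.64 in the latter; the right panel gives the 4 clones one by one.

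The second comparison asks which members differ between cells with and without GFP in clones that all received dDAVP. Over the 4 clones Fos and Jun were higher in the GFP-positive fraction, by log2 changes of 0.64 and 0.51, and Fosl1 and Atf3 were lower, with log2 changes of -0.76 and -0.64. That is 4 of 9 tested members, 2 in each direction, against 35.3% of the 13113 tested entries (12.1% higher and 23.2% lower); the share of members called is therefore near that of the table. Median log2 changes were 0.08 over the 9 members and -0.06 over all tested entries. Of all calls 34.2% were higher, against 51.06% after median-ratio scaling and 50.46% after quantile normalization. The difference had 1 sign in all 4 clone means for these 4 members. Of the tested entries, 16.2% were higher and 27.2% lower in all 4 clone means. Whether single libraries of the fractions overlapped within each clone, given below for these members, was not counted over all entries.

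Fos was lowest in the GFP-negative fractions of 3 clones. In C1 it was at 1813 and 1766 TPM in the GFP-negative and 3037 and 2860 TPM in the GFP-positive libraries. In C43 it was at 1857 and 1828 against 2500 and 2728 TPM, and in C50 at 1515 and 2377 against 3993 and 4072 TPM. C11 had high Fos in both fractions, 3107 and 3400 against 3813 and 3994 TPM. The libraries of the fractions did not overlap in any clone, and the ratio of means was 1.65 for C1, 1.2 for C11, 1.42 for C43 and 2.07 for C50. Over the clones the log2 change was 0.64 ± 0.11 (SE; limma adjusted p 0.000299), and without GFP-negative replicate 1 of C50 it was 0.54 (adjusted p 1.07e-05).

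Jun was higher in every GFP-positive library than in any GFP-negative library of the same clone. It was at 1484 and 1795 TPM in the GFP-negative and 2457 and 2575 TPM in the GFP-positive libraries of C1. In C50 it was at 941 and 2314 against 3526 and 3001 TPM. In C11 (2316 and 2098 against 2349 and 2618 TPM) and C43 (1539 and 1561 against 1728 and 1607 TPM) the ratios of means were 1.13 and 1.08. Over the clones the log2 change was 0.51 ± 0.17 (SE; limma adjusted p 0.0307). Without GFP-negative replicate 1 of C50, the library with the lowest Jun of all, the change was 0.33 (adjusted p 0.00288). The call was lost with any TPM above 0 as the filter (adjusted p 0.0981), without clone C1 (0.47, adjusted p 0.141), after quantile normalization (0.37, adjusted p 0.161), with clone means as the replicates (adjusted p 0.0868), and without GFP-negative replicate 1 or either GFP-positive replicate of C1 or either GFP-positive replicate of C50 (adjusted p 0.0513 to 0.068).

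Fosl1, which encodes FRA-1, a FOS protein associated with migration and growth signalling, showed the widest span of group means among the 9 tested members, 4.98 times from lowest to highest. In C1 it was at 234 and 239 TPM in the GFP-negative and at 110 and 100 TPM in the GFP-positive libraries, all above every other library. In C43 it was at 95.9 and 86.6 against 42.2 and 65.4 TPM, and in C50 at 78.8 and 87.9 against 47.5 and 47.6 TPM. In C11 it was at 67.5 and 72.7 against 56.6 and 56.1 TPM. The GFP-positive libraries lay below the GFP-negative ones in each clone, with ratios of means of 0.44 for C1, 0.80 for C11, 0.59 for C43 and 0.57 for C50. Over the clones its log2 change was -0.76 ± 0.11 (SE; limma adjusted p 9.37e-05), and Fosl1 made up 11.33% of the FOS-family TPM in the GFP-negative fraction of C1 against 1.15% to 4.598% in the other 9 groups.

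Atf3 moved the opposite way from Fos. It was at 1361 and 1445 TPM in the GFP-negative and at 716 and 727 TPM in the GFP-positive libraries of C11, and at 1424 and 1792 against 855 and 833 TPM in C50. The gap was smaller in C1, at 919 and 909 against 688 and 671 TPM, and in C43, at 1350 and 1300 against 1041 and 1198 TPM. No clone had an overlap, and the ratios of means were 0.74 for C1, 0.51 for C11, 0.85 for C43 and 0.52 for C50. Over the clones the log2 change was -0.64 ± 0.10 (SE; limma adjusted p 0.000126). With clone means as the replicates Fos, Fosl1 and Atf3 kept their calls (adjusted p 0.0231, 0.0165 and 0.0249). The ratio of Fos to Atf3 TPM was 1.20 to 2.32 in the means of the GFP-negative groups and 2.34 to 5.41 in those of the GFP-positive groups.

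**Figure D3:**
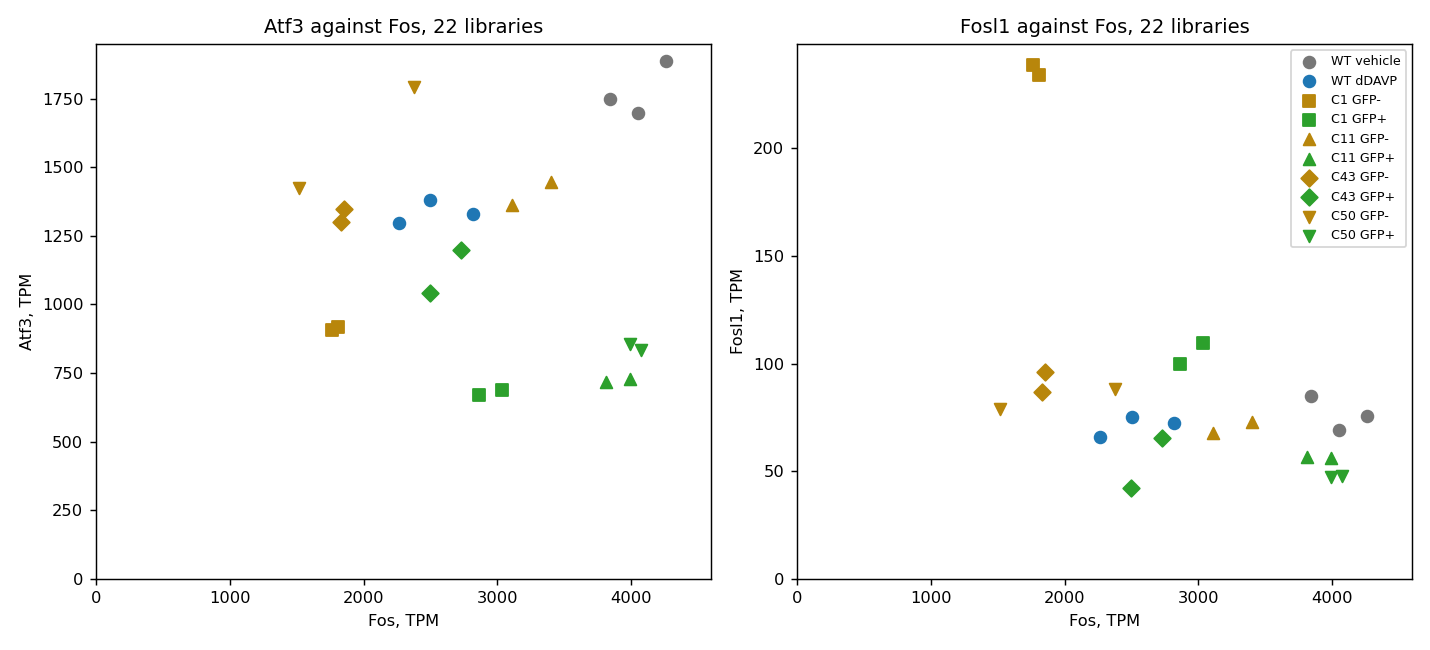
Atf3 TPM (left) and Fosl1 TPM (right) against Fos TPM in the 22 libraries; colours mark WT vehicle (grey), WT dDAVP (blue), GFP-negative (ochre) and GFP-positive (green), and shapes mark WT and the clones. GFP-positive libraries of C1, C11 and C50 lie at 671 to 855 TPM of Atf3 with Fos at 2860 to 4072 TPM, WT vehicle libraries are high in both, and the GFP-negative libraries of C1 have the highest Fosl1.

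The remaining 5 tested members were not called over the clones. Fosl2 had a log2 change of 0.29 (limma adjusted p 0.103) and was called without clone C1 (0.44, adjusted p 0.0402) and after median-ratio scaling (0.37, adjusted p 0.0267) or quantile normalization (0.38, adjusted p 0.0205). Its highest values were 22.7 and 20.9 TPM in GFP-positive C50, above the 18.3 TPM that was the highest elsewhere. Junb had a change of 0.13 (adjusted p 0.162) and was called after median-ratio scaling (0.21, adjusted p 0.0201). Jund had a change of 0.08 (adjusted p 0.612), Fosb of 0.02 (adjusted p 0.93) and Maff of -0.02 (adjusted p 0.917), and the signs of Junb (quantile normalization) and Maff (median-ratio scaling and quantile normalization) turned under another scaling. Without GFP-negative replicate 1 of C50 the change of Jund was -0.02 and that of Maff -0.16, neither of them called. Within C50 the change of Maff was 0.41 and that of Jund 0.37, neither of them called. These were -0.10 and -0.02 without GFP-negative replicate 1 of the clone, and 0.92 and 0.76 without its replicate 2. Fosb, which changed with dDAVP in WT cells, was at 33.0 to 59.1 TPM in the GFP-negative and at 28.7 to 54.5 TPM in the GFP-positive libraries, with overlap in every clone.

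**Figure D4:**
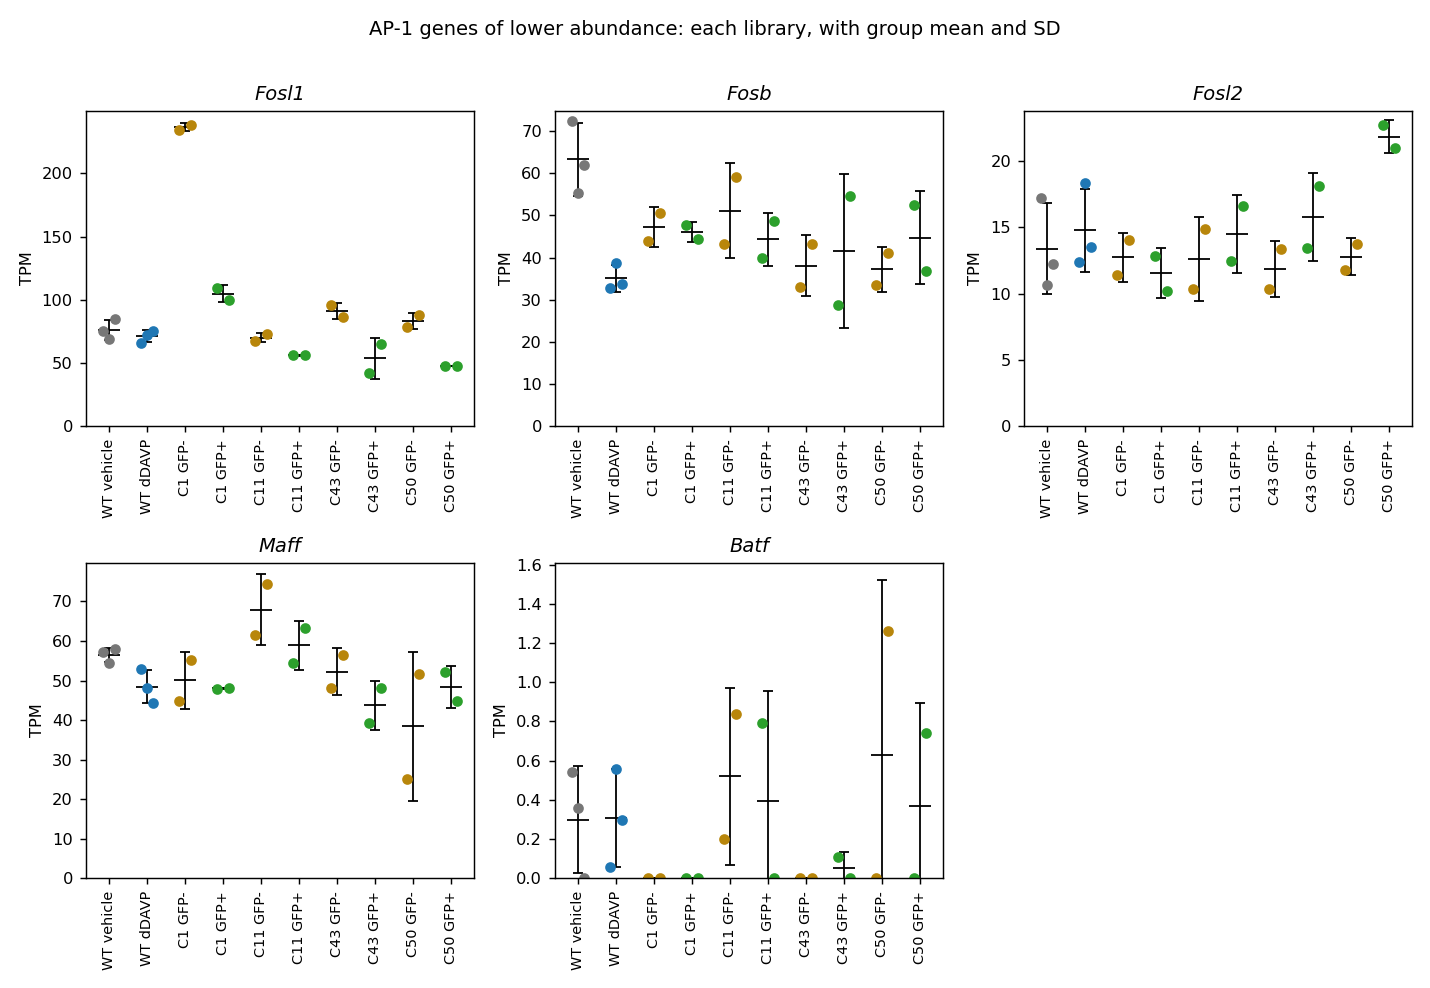
TPM (vertical axes, from 0) of the 5 scarcer members in each library of the 10 groups (points), with group mean (horizontal line) and SD (bars), coloured as WT vehicle (grey), WT dDAVP (blue), GFP-negative (ochre) and GFP-positive (green). Fosl1 reaches 234 and 239 TPM in GFP-negative C1, Fosl2 is highest in GFP-positive C50, and Batf stays at or under 1.26 TPM.

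Within single clones, with a shared estimate of the spread, the members called were 3 in C1 (Fos 0.72, Fosl1 -1.17, Atf3 -0.43; 7.22% of all entries called), 1 in C11 (Atf3 -0.96; 7.94%), 2 in C43 (Fos 0.50, Fosl1 -0.78; 16.3%) and 6 in C50 (Fos 1.09, Jun 1.14, Fosl2 0.73, Junb 0.42, Fosl1 -0.80, Atf3 -0.92; 26.6%), all as log2 changes. In C50 the values of Jun (0.49, limma adjusted p 0.0181) and Fos (0.76, adjusted p 5.88e-05) were smaller without GFP-negative replicate 1 (Jun was at 1.79 without replicate 2), and Junb (0.26, adjusted p 0.0888) and Fosl2 (0.63, adjusted p 0.126) were no longer called. The call of Fos in C43 (limma adjusted p 0.0469) was lost when any library other than those of GFP-negative C50 was left out. Jun in C1 (0.62), Fos in C11 (0.26) and Atf3 in C43 (-0.25) gained a call when either GFP-negative library of C50 was left out. The sizes of these 3 changes stayed the same, as only the shared estimate of the spread changed. In C1 the calls of Fos and Atf3 were lost without any 1 of the clone's own 4 libraries, that of Atf3 also without either GFP-positive library of C11, GFP-negative replicate 2 of C43 or GFP-positive replicate 1 of C50, and that of Fosl1 in C43 without GFP-negative replicate 1 (adjusted p 0.0793); without GFP-positive replicate 1 the latter change was -0.47. In C50, Jun (adjusted p 0.102 and 0.0526) and Fosl2 (0.16 and 0.106) lost their calls without either GFP-positive library, and Junb without GFP-positive replicate 1 (0.132).

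Whether the fraction difference varied between clones was tested as an interaction. By limma 0 of the 9 members were called (0.869% of all entries), with 3 at an unadjusted p under 0.05: Atf3 (0.000847, adjusted p 0.0721), Fos (0.0179, adjusted p 0.267) and Fosl1 (0.0257, adjusted p 0.306). How many of all entries lay under that unadjusted threshold was not counted. Without GFP-negative replicate 1 of C50 the interaction was called for Atf3 (adjusted p 0.00368) and Fos (adjusted p 0.0385), and without its replicate 2 for 6 members; the entries called in the whole table went from 114 to 328 and 5038 in these fits. The clones differed from each other, whatever the fraction, in Fos (limma adjusted p 0.00923), Fosl1 (4.13e-05), Junb (0.0098) and Atf3 (0.00981), against 28.0% of all entries. Without clone C1 0 members were called, and without clone C50 or its GFP-negative replicate 1 7 were. Over the whole table the 3669 entries called became 975 without C1 and 2744 to 5889 without single libraries. Among the clones, C1 had the highest Fosl1 and Jund in both fractions, C11 the highest Fos in the GFP-negative fraction, and C43 the lowest Junb in both fractions.

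Across the 10 groups, Fos, Jund, Junb, Atf3 and Fosb had their highest mean in WT vehicle cells (Fos 4049 ± 209 TPM, SD, n = 3), though the libraries overlapped with those of the next group for Fos, Fosb, Junb and Atf3. In the order of group means, 4 of 9 neighbouring groups had separate libraries for Fos and Jund, 5 for Atf3, 3 for Jun and Fosl1, 1 for Junb and Fosl2 and 0 for Fosb and Maff. Such separations were not counted over all entries, so these numbers only describe the members. Against WT cells with dDAVP, the GFP-negative fractions had 0 of 9 members called by limma with the clone means as units. Over all 13263 entries 0.0679% were called, 0.0226% higher and 0.0452% lower. At an unadjusted limma p under 0.05 were Jun (log2 change -0.51, p 0.00823), Junb (-0.29, p 0.0446) and Jund (-0.47, p 0.00393). The share of all entries at that unadjusted threshold was not counted, so these 3 members cannot be set against the table. Without GFP-negative replicate 1 of C50 the changes of Jun, Junb and Jund were -0.35, -0.25 and -0.38. The GFP-positive fractions also had 0 of 9 (1.06% of 13150 entries; 0.0913% higher, 0.973% lower), with Atf3 at -0.69 (adjusted p 0.0945, unadjusted p 0.00279), Jund at -0.40 (unadjusted p 0.0242) and Fosb at 0.30 (unadjusted p 0.025). With single libraries as units 1 and 3 members were called, beside 301 and 2864 entries in the whole table. Clone, separation and reporter cannot be told apart in these comparisons, and both share their WT libraries.

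Over the 22 libraries, log2(TPM + 1) of Jun correlated with that of Fos (Pearson r 0.85) and Junb (0.85), and Junb with Jund (0.83). Fos ran against Fosl1 (r -0.56), and against Atf3 in the 16 clone libraries (r -0.47) but not over all 22 (r -0.09). These are descriptions over libraries that share groups, and no p is given. Among 9588 entries with a mean of at least 5 TPM, the most alike in pattern were Kif12 (r 0.93) and Fbxo7 (0.91) for Fos, Map4k5 (0.93) and Pcmtd2 (0.92) for Jun, Ier2 (0.93) and Tmem18 (0.87) for Junb, and Xab2 (0.93) and Slc20a2 (0.91) for Jund. For Atf3 they were Poglut2 (0.93) and Ralyl (0.93), for Fosl1 Tmem115 (0.93) and Cfl1 (0.91), for Maff Agap1 (0.93) and Arhgef16 (0.91), for Fosl2 Tnfrsf22 and Rad21 (0.82 each), and for Fosb Sfswap (0.82) and Mink1 (0.81). Aqp2 itself ran against Fosl1 in the clone libraries (r -0.79) and with Fos at r 0.44; over all 22 libraries these were -0.59 and -0.02.

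The genes around AP-1 were followed in 6 fixed lists. Among 15 textbook AP-1 target genes 9 were tested, and 8 of these were called between the GFP fractions, 4 higher and 4 lower (12.1% and 23.2% of all entries), with a median log2 change of -0.27 against -0.06 for all entries. Ccnd1, which encodes cyclin D1 and drives entry into the cell cycle, was at 10.95 to 24.4 TPM (median 20.4) in the 8 GFP-negative and at 0.64 to 2.55 TPM (median 0.92) in the 8 GFP-positive libraries. The groups were far apart, with a log2 change of -3.23 ± 0.15 (SE; limma adjusted p 3.53e-09). Timp1, an inhibitor of matrix metalloproteinases, fell by 2.00 on the log2 scale (limma adjusted p 3.98e-08), from a median of 16.05 to one of 2.79 TPM. Plau, the urokinase protease, fell by 1.06 (limma adjusted p 6.04e-05), from a median of 14.7 to one of 5.08 TPM. Outside the naming rule and chosen after their values were seen, Cd44 was the other lower gene, and Mt2, Ezr, Plaur and Hbegf the 4 higher ones. Also outside the naming rule, Ccnd1 and Timp1 were called lower in the GFP-positive fractions than in WT cells with dDAVP (-2.79 and -1.68, limma adjusted p 0.00304 and 0.024). These were 2 of the 9 tested targets, against 1.06% of all entries. In the GFP-negative fractions 0 of the 9 were called.

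**Figure D5:**
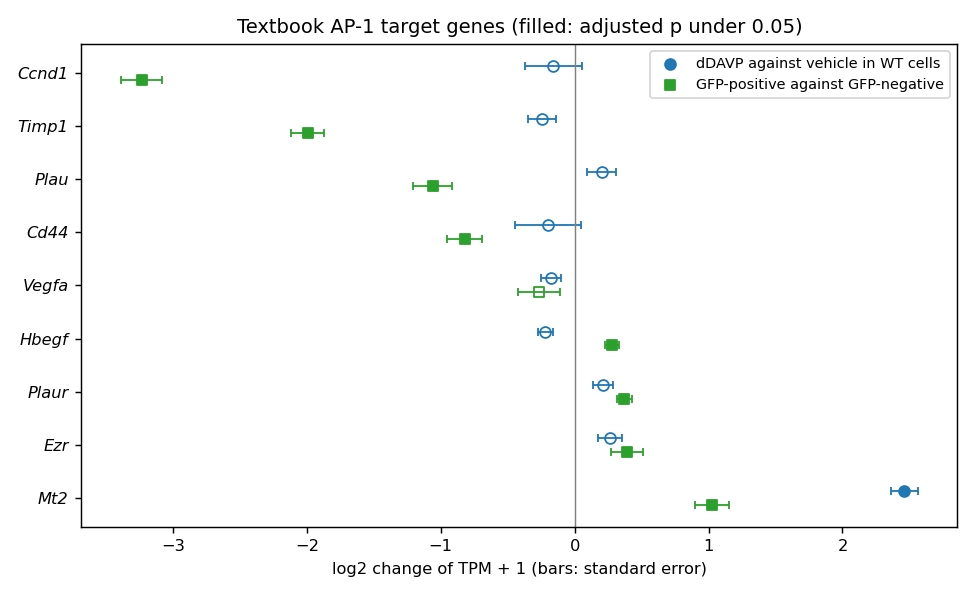
log2 change of TPM + 1 (horizontal axis) of the 9 tested textbook AP-1 target genes, with standard errors as bars, for dDAVP against vehicle in WT cells (circles) and GFP-positive against GFP-negative in the clones (squares); filled symbols have an adjusted p under 0.05. Ccnd1 lies at -3.23 between the fractions, and Mt2, at 2.46, is the 1 filled circle.

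Without GFP-negative replicate 1 of C50, 4 targets were higher and 5 lower, and with clone means as the replicates 2 and 4. With dDAVP in WT cells 1 of these 9 targets was called, against 8.88% of all entries, and after median-ratio scaling 3 were, all higher. Mt2, a metallothionein that also answers to metals and glucocorticoid, was at 133 to 166 TPM with vehicle and at 754 to 861 TPM with dDAVP, a log2 change of 2.46 ± 0.10 (SE; limma adjusted p 6.38e-05). Its change between the fractions was 1.02 (limma adjusted p 2.34e-05). Of the 15 tested bZIP partners and relatives, 0 were called with dDAVP by limma (7 at an unadjusted p under 0.05), and 2, both higher, after median-ratio scaling. The share of all entries at an unadjusted p under 0.05 was not counted. Between the fractions 6 of 15 were called, 3 higher and 3 lower, against 35.3% of all entries; without GFP-negative replicate 1 of C50, 3 were higher and 5 lower, and with clone means as the replicates 1 and 2. Nfe2l1 and Nfe2l2, which encode activators of proteasome and antioxidant genes, had log2 changes of 0.48 (limma adjusted p 0.00692) and 0.42 (adjusted p 0.000362), and Atf1, a CREB relative, fell by 0.42 (adjusted p 0.00562).

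Of 17 tested MAP kinase genes, Mapk13 alone was called with dDAVP (-0.30, limma adjusted p 0.0419, lost after median-ratio scaling at 0.447). Between the fractions Mapk9, which encodes JNK2, was higher (0.44, limma adjusted p 0.00212), and Map2k5 (-0.31, adjusted p 0.00335), Map2k2 (-0.31, adjusted p 0.000322) and, outside the naming rule, Mapk12 (-0.25, adjusted p 0.00275) were lower. These 4 of 17 stand against 35.3% of all entries, and the balance turned with scaling: 4 were higher and 2 lower after median-ratio scaling, and 4 and 3 after quantile normalization. With clone means as the replicates 1 was higher and 1 lower. Among the 6 genes of serum response factor and its cofactors, Elk3, a ternary complex factor, was the 1 called, lower in GFP-positive cells (-0.87, limma adjusted p 0.000291), which is also a smaller share than over all entries; 1 was higher and 1 lower after median-ratio scaling, and 1 and 2 after quantile normalization. Among 7 genes for turnover of AP-1 mRNA and protein, Zfp36, whose product (tristetraprolin) speeds decay of AU-rich mRNAs, and Itch, a ubiquitin ligase for JUN proteins, were called, both higher in GFP-positive cells; 2 of 7 is below the 35.3% of all entries called. Zfp36 was at 356 to 633 TPM in the GFP-negative and 645 to 1187 TPM in the GFP-positive libraries (log2 change 0.88, limma adjusted p 8.16e-05), and Itch changed by 0.66 (adjusted p 0.0142), a call lost with clone means as the replicates (adjusted p 0.0519). With dDAVP 0 genes of either of these lists were called by limma; at an unadjusted p under 0.05 were, named after their values were seen, Elk1 and Elk4 of the first and Zfp36 of the second (log2 change -0.31, -0.46 and -0.27). Without GFP-negative replicate 1 of C50 the fraction difference was called for 7 of the MAP kinase genes (2 higher, 5 lower), 3 of the serum response factor list (all lower) and 4 of the turnover list (2 in each direction), while the entries called in the whole table rose from 4626 to 6043.

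Genes known to rise when tissue is dissociated, which include immediate early and heat shock genes, were among those called in both comparisons. With dDAVP 4 of the 13 tested were lower and 0 higher (6.51% and 2.37% of all entries): Dusp1, a phosphatase that shuts off MAP kinases, at a log2 change of -0.66 (limma adjusted p 0.0013), Dnajb1, a heat shock co-chaperone, at -0.38 (adjusted p 0.0194), Ier2, an immediate early gene, at -0.34 (adjusted p 0.0313), and, outside the naming rule and chosen after its value was seen, Socs3. After median-ratio scaling Dusp1 was the 1 still called. Between the GFP fractions 6 were higher and 2 lower (12.1% and 23.2% of all entries), with a median log2 change of 0.31. After median-ratio scaling 9 were higher and 2 lower, after quantile normalization 3 and 3, and with clone means as the replicates 3 and 2. Dnajb1 rose by 0.77 (limma adjusted p 1.96e-07) and Nr4a1, an orphan nuclear receptor and immediate early gene, by 0.73 (adjusted p 0.0078), while Hspb1, a small heat shock protein, fell by 1.39 (adjusted p 2.98e-05). Against WT cells with dDAVP, 0 of the 13 were called in the GFP-negative (0.0679% of all entries) or the GFP-positive fractions (1.06%). The part that cell handling has in the values of Fos and Jun was not tested.

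In GENCODE M21 (GRCm38), Fosl1, Jun, Junb and Jund overlap a gene on the opposite strand, and whether the counting used strand is not given in the sources used here, so reads of the pairs may not be told apart. Prdx2, which overlaps Junb, was at 273 to 589 TPM, Ccdc85b, which overlaps Fosl1, at 8.22 to 31.9 TPM, Gm11175, which overlaps Jund, at 1.19 to 9.2 TPM, and Junos, which overlaps Jun, at 0.6 to 3.13 TPM.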

How the data were processed

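RNA-seq libraries were made by the submitters with SMART-Seq HT and Nextera XT and sequenced paired-end, per the labels' protocols. STAR and RSEM are named, without versions, in the submitters' processing notes; genome build, annotation and strand setting are not given in the sources used here. The authors deposited TPM per gene, so depth is unknown and no count test was run. The authors' deposited table also holds group means, ratios, log2 ratios and p-values, which were not used in any test, and 1 column of values was not used. Lines that share a symbol were summed (980 lines, 79 symbols). Entries with a mean of at least 1 TPM in the libraries of a fit were tested on log2(TPM + 1) with limma 3.58.1 (R 4.3.3, eBayes with trend), Benjamini-Hochberg adjusted over all entries and called under 0.05; the log scale understates changes of low genes. The script was tested on simulated data. Fraction differences were fitted with clone as a term, clones one by one with group means, and comparisons with WT on clone means. From each list up to 3 called genes with a mean of at least 5 TPM were named per comparison by size of log2 change, and for each member the 2 most correlated entries; exceptions are marked. An item of the target gene list is not reported here. The members and lists were chosen with earlier results of these data known. Alternatives were the pseudocount, filter, scaling, trend, replicate block, clone means, and left-out libraries and clones.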

Additional observations from a re-analysis of the deposited data

How the results depend on the processing

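TPM keep no depth, so the counting error of the scarce members (Fosl2, Batf) is unknown. The direction and call of Fos, Fosl1 and Atf3 between the GFP fractions held in every alternative run. Of 67 changes of sign in single members, 0 concerned a change called as reported and 0 were called under the alternative. The cause of the shifts below was not tested. The labels do not say whether libraries with the same replicate number were paired. Correlations of their deviations were -0.208 to -0.0254 in WT and -0.0168 to 0.212 in the clones. With so few libraries per group these values cannot decide it, so the fits with the replicate block cannot be set aside.

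Members called with dDAVP were 4 as reported, 2 with any TPM above 0 or median-ratio scaling, 6 after quantile normalization, 0 with the replicate block (Fos adjusted p 0.0672, Fosb 0.0819) and 2 to 4 without single libraries. Members that differed between clones were 2 after quantile normalization, 0 without C1, 7 without C50 and 4 to 7 without single libraries. Within C1 1 was called with any TPM above 0 or quantile normalization (1 to 4 without single libraries), in C11 1 to 2 without single libraries, in C43 1 with any TPM above 0, no trend, quantile normalization or the replicate block (0 to 3), and in C50 3 with any TPM above 0 or quantile normalization (3 to 8). The interaction had 1 after median-ratio scaling and 0 to 6 without single libraries. Against WT with dDAVP, single libraries gave 1 member for the GFP-negative and 3 for the GFP-positive fractions, the latter 2 without C1 and 1 without C43. Between the GFP fractions 6 were called after median-ratio scaling, 3 with the replicate block (Jun lost, adjusted p 0.0537) and 3 to 5 without single libraries.

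The number of entries called in the whole table moved beyond 1.5 times in the cases that follow. With dDAVP the entries went from 1198 to 442 (any TPM above 0), 691 (no trend), 122 (replicate block) and 314 to 2038 without single libraries. With any TPM above 0 they were 609 in C1 (947 as reported), 607 in C11 (1041), 1346 in C43 (2134) and 2291 in C50 (3486), and with the replicate block 615 in C1 and 564 in C11. Without single libraries they ranged over 377 to 2094 in C1, 318 to 2331 in C11, 858 to 3891 in C43, 1793 to 6820 in C50, 42 to 5038 for the interaction (114 as reported) and 2744 to 5889 between clones (3669). The interaction had 234 entries after quantile normalization and 11 with the replicate block. Between clones the count was 975 without C1, and between the fractions 4626 became 2406 with clone means. For GFP-negative cells against WT, 9 entries became 5 with any TPM above 0, 301 with single libraries as units, 4 without C1, 5 without C11 and 4 to 10 without single libraries. For GFP-positive cells, 140 entries became 60 with any TPM above 0, 2864 with single libraries as units, 920 without C1, 55 without C11, 82 without C43, 77 without C50 and 31 to 161 without single libraries.

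These log2 changes turned sign. With dDAVP, Fosl1 was at 0.0707 and Jund at 0.0114 after median-ratio scaling, and Fosl1 at 0.0011 after quantile normalization. Between the fractions, Maff was at 0.0558 (median-ratio), 0.0444 (quantile), 0.0348 (without C11) and 0.0528 (without C43), Junb at -0.0682 (quantile), and Fosb at -0.0541 and Jund at -0.0217 (without C50). In C1, Fosb was at 0.0458 and Maff at 0.0302 (median-ratio), and Fosb at 0.0747, Maff at 0.0481 and Junb at -0.1308 (quantile). In C11 Junb was at 0.0977 and Jund at 0.0807 (median-ratio). In C43 Jund was at 0.0223 (median-ratio), Jun at -0.0253 and Junb at -0.2139 (quantile). For GFP-positive cells against WT, Jun was at 0.0760 (median-ratio) and 0.1746 (without C43), Fosl2 at -0.0801 (without C50) and Maff at -0.0535 (without C11). For GFP-negative cells, Atf3 was at 0.1064 (without C1) and Maff at -0.0884 (without C11).

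Without single libraries, changes that turned sign spanned these ranges. With dDAVP, Fosl2 ran from -0.0191 to 0.3211. Between the fractions, Fosb ran from -0.0668 to 0.0975, Jund from -0.0213 to 0.1246 and Maff from -0.1560 to 0.0285. In C1 the ranges were -0.1362 to 0.0635 for Fosb, -0.2843 to 0.0206 for Fosl2 and -0.1978 to 0.0937 for Maff. In C11 they were -0.4150 to 0.0284 for Fosb, -0.0471 to 0.4339 for Fosl2, -0.1251 to 0.0175 for Junb and -0.1431 to 0.0018 for Jund. In C43 they were -0.3843 to 0.5192 for Fosb and -0.0735 to 0.1212 for Junb. In C50 they were -0.0073 to 0.4895 for Fosb, -0.0193 to 0.7581 for Jund and -0.0957 to 0.9187 for Maff. Against WT, they were -0.0307 to 0.2353 for Fosl2, -0.0336 to 0.0431 for Jun and -0.0319 to 0.0921 for Maff in GFP-positive cells, and -0.0739 to 0.1797 for Maff in GFP-negative cells.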
